A study of Mus musculus with 2 samples.

Results

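The genes described here are the zinc finger protein genes that lie outside the large zinc finger clusters of the mouse genome. They are protein-coding genes of the GENCODE vM1 annotation (mouse build mm9) with names of Zfp plus digits, and each had at least 1 RNA polymerase II (Pol II) anchor within 1 kb of its gene body in either of 2 contact maps. Genes inside 6 clustered regions on chromosomes 2, 4, 5, 7, 13 and 17 were excluded by position, and Zfp42 and Zfp143 were excluded by name. Of 344 gene models with such names, 295 lay outside the excluded regions and names, and 246 of these had an anchor and form the set. The other 49 had no anchor in either map. The 246 members carry 244 distinct symbols, because Zfp664 and Zfp319 have 2 gene models each, and they make up 246 of the 12817 protein-coding genes with contacts.

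The maps come from ChIA-PET, in which chromatin bound by Pol II was precipitated and ligated so that each paired-end tag (PET) joins 2 stretches of DNA that lay close together. Both maps were made in mouse embryonic stem cells (mESCs) derived from blastocysts of the genotype CreERT2; Roninflox/flox and grown with serum and LIF on gelatin. The control cells received ethanol for 4 days and the knockout cells received tamoxifen for 4 days, which activates the Cre recombinase in cells that carry floxed alleles of Ronin (Thap11), so the control cells carry the same alleles and recombinase. The comparison asks whether Pol II contacts depend on Ronin, and it rests on 1 library per condition, each merged by the authors from 2 replicates.

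Most proteins named Zfp carry C2H2 zinc fingers, small folds held by a zinc ion that each read a few bases of DNA. In many of them a KRAB domain near the amino terminus recruits Trim28 (KAP1), which brings in the histone methyltransferase Setdb1 and HP1 proteins and silences the bound DNA. In embryonic stem cells these proteins are best known for holding retroelements and imprinted loci in a silent state. Others have no KRAB domain and serve as activators, RNA-binding proteins or ribosome factors. Ronin is a THAP-domain protein that binds a long motif at many promoters, the Ronin-binding motif (RBM), which the zinc finger protein Zfp143 also recognizes.

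The members were diverse in the proteins they encode. Of 246 longest coding sequences in the annotation, 195 held at least 5 matches to a C2H2 finger pattern, the median was 9 fingers, and the highest number was 36 in Zfp142. A KRAB pattern was found in 104 genes and a SCAN pattern, which marks a dimerization domain, in 8, with 3 genes holding both. The 11 gene models without a finger match included Zfp36, whose protein has zinc fingers of another type. By position, 156 members had the start of another member within 1 Mb, so that the set is dispersed with respect to the large clusters only, and 72 of the 246 lay on chromosome 7.

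The letters of the RBM were found at 9.35% of member promoters. The motif was searched as CTGGGA and TGTAGT with any 2 bases between them, on both strands, from 250 bases before to 50 bases after each annotated transcription start in the mm9 genome. It was present in 23 of 246 members (9.35%), in 350 of 12809 genes with contacts (2.73%), in 376 of 22372 protein-coding genes (1.68%) and in 7 of 41 Zfp genes of the excluded regions (17.1%). Of the 23 members, 16 were on chromosome 7 and 14 had the KRAB pattern. The 25 sites lay between positions -191 and 33 relative to the nearest transcription start, with a median of -39, and 19 of them pointed in the same direction as the gene. A match is a stretch of letters and not a measured binding site. The sites below are shown for motif members with many PETs and for a group of neighbors on chromosome 7 that recurs in the results. Each is written 5′ to 3′ on the strand of the motif, with the motif in capitals, at mm9 coordinates.
Zfp111, chr7:24993213-24993242, minus strand: ttagcattCTGGGAAATGTAGTcccaaaag
Zfp112, chr7:24897180-24897209, plus strand: tgaaaattCTGGGAAATGTAGTtcatgacc
Zfp180, chr7:24866883-24866912, plus strand: tgagagttCTGGGAATTGTAGTtccattga
Zfp235, chr7:24919147-24919176, plus strand: gacgcattCTGGGAATTGTAGTtccagcgc
Zfp93, chr7:25055355-25055384, plus strand: gaggaattCTGGGAATTGTAGTtccaacgc
Zfp60, chr7:28516355-28516384, minus strand: ggtagcccCTGGGAAATGTAGTgccgagtg
Zfp566, chr7:30875584-30875613, plus strand: ggagccctCTGGGAAATGTAGTcagtccga
Zfp260, chr7:30879776-30879805, plus strand: gatgccttCTGGGAAATGTAGTtcagcagt
Zfp74, chr7:30739116-30739145, minus strand: gaagggctCTGGGAAATGTAGTtcaaagca
Zfp444, chr7:6123789-6123818, plus strand: cgtgaaatCTGGGAAATGTAGTccaaaatc
Zfp239, chr6:117813078-117813107, plus strand: gcagccttCTGGGACTTGTAGTtcgaatcc
Zfp358, chr8:3493105-3493134, minus strand: gggagctgCTGGGACTTGTAGTtcgctcga
The sites of Zfp111, Zfp180 and Zfp93 sat at positions -60, -46 and -70, upstream of their starts and in the orientation of the gene. The sites of Zfp358, Zfp60 and Zfp566 sat at positions -19, -39 and -70 and pointed away from the gene. Zfp260 had a further site at position -118 and Zfp112 had one at position 33, downstream of its start.

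**Figure D1:**
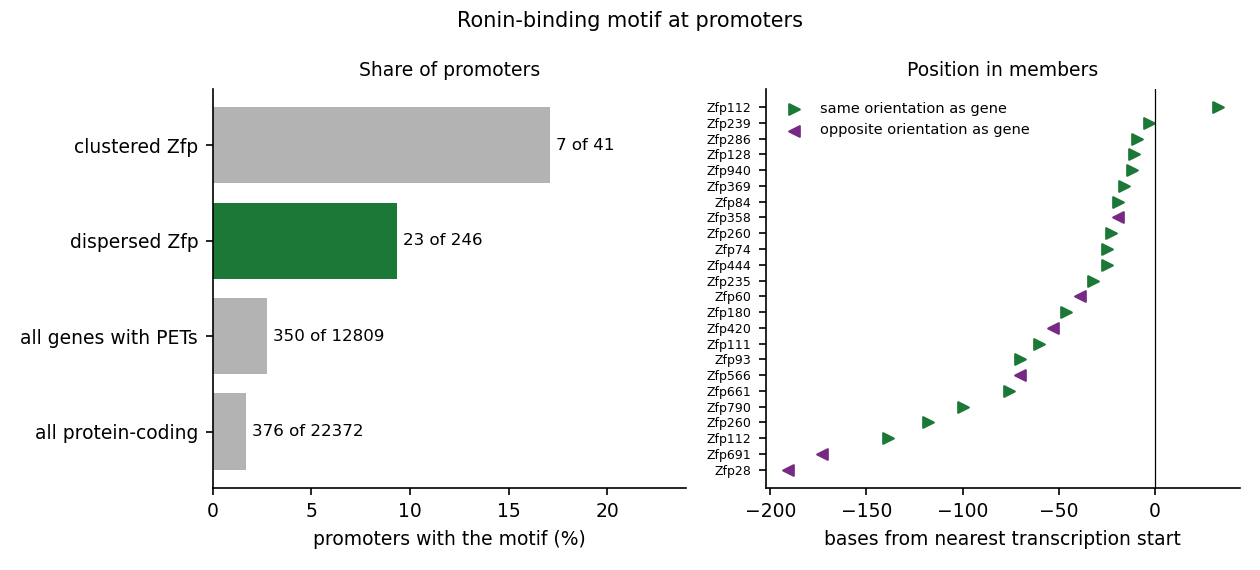
Left, the percent of promoters that hold the Ronin-binding motif in clustered Zfp genes, dispersed Zfp genes, all genes with PETs and all protein-coding genes, with counts beside the bars. Right, each member's motif site by its distance in bases from the nearest transcription start, with arrowheads for its orientation; the site of 1 member on chromosome 18 is left out. All but 1 of the sites lie upstream of the start.

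The 2 maps differed in their number of PETs. The control map held 156097 PETs in 128267 pairs of anchors and the knockout map 65276 PETs in 44328 pairs, so the knockout had 41.8% of the control PETs (95% interval 41.4 to 42.2). Intervals here are exact binomial and cover counting error only. The scaled log2 ratio used below divides the knockout PETs by 0.418, adds 1 PET to both values and takes log2 of knockout over control. It therefore leaves out a proportional change shared by all contacts, but it is not centered on the typical gene. Its median over all genes was -0.24, and -0.16 when the anchor with the most partners in each library was left out. The knockout share of PETs was 29.5% in these maps and 44.4% by the study's library totals of PETs over 5 kb. How much of the difference between the maps is sequencing depth was not tested. Since each map counts PETs over many cells together, from 2 merged replicates, fewer cells with a contact and fewer contacts per cell cannot be told apart. PETs were found at all 10 embryonic stem cell marker genes, from Pou5f1 with 23 control and 11 knockout PETs to Esrrb with 130 and 32, at 1 of 8 fibroblast markers (Fn1), at 5 of 6 primitive endoderm markers with 8 PETs in each library, and at 4 of 6 markers of differentiated cells with 18 and 9. Of the last group, Sox1 was not in the annotation under this name. Thap11 itself had 109 control and 46 knockout PETs, which counts contacts at the gene and does not check its deletion.

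Counted once per pair of anchors, the members held 5233 PETs in the control library and 1978 in the knockout library. The knockout value was 37.8% of the control value (95% interval 35.9 to 39.8), below the 41.8% of all PETs (interval 41.4 to 42.2). The size of this gap depended on which pairs were counted. The anchor with the most partners in each library held 6.16% of all control and 11.5% of all knockout PETs, but 0.841% and 1.16% of member PETs. Without it the values were 37.7% (interval 35.7 to 39.7) for members and 39.5% (interval 39.1 to 39.8) for all PETs, and the intervals overlap. Without pairs whose anchors share an identical stretch of at least 100 bases they were 37.1% (interval 35.1 to 39.1) and 39% (interval 38.6 to 39.4), which overlap as well. With anchors near 1 gene only they were 32.1% (interval 29.7 to 34.8) for members and 42.1% (interval 41.7 to 42.6) for all genes, and these intervals do not overlap. This comparison was not repeated without the anchor with the most partners, so the part of that anchor in the 42.1% was not tested. Most of these contacts were between chromosomes, with 4632 of 5233 control PETs (88.5%, interval 87.6 to 89.4) and 1713 of 1978 knockout PETs (86.6%, interval 85 to 88.1), against 84.2% and 81.4% over all PETs. Within chromosomes the members had 601 control and 265 knockout PETs, or 44.1% (interval 38 to 51), against 49.2% over all intrachromosomal PETs. Between chromosomes the knockout value was 37% of control (interval 35 to 39.1), against 40.4% over all interchromosomal PETs. Nearly all pairs rested on a single PET, 98.5% in the control and 98.1% in the knockout. At least 3 PETs were held by 15 of 5039 control pairs and 10 of 1897 knockout pairs. The study took pairs with 3 independent PETs as its high-confidence interactions. For its Ronin map it left out interactions between chromosomes, citing reports that they carry more noise. Most pairs counted here therefore fall outside those limits. The other end of a member's pair was at a promoter for 70.8% of control PETs and 73% of knockout PETs.

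Per gene, the median was 12 control PETs and 4.5 knockout PETs, and the ranges were 0 to 233 and 0 to 89. After scaling, 161 of 246 members (65.4%) had fewer PETs in the knockout library and 85 had more, beside 60.7% with fewer over all 12817 genes. The median scaled log2 ratio was -0.31 over the members and -0.24 over all genes. Among the 160 members with at least 10 PETs over both libraries, the medians were -0.22 and -0.20 for members and for all such genes. No PET was seen in the knockout library at 42 members (17.1%), against 11% of all genes, and in the control library at 1 member, Zfp799 (0 control and 4 knockout PETs), against 1.93% of all genes. Of the 42, 21 had 3 or fewer control PETs, and the control PETs multiplied by 0.418 exceeded 3 at 7 of them.

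An exact two-sided binomial test against the knockout share of all PETs, adjusted by the Benjamini-Hochberg method over all 12817 genes, called 3 members lower and 5 members higher in the knockout library at an adjusted p under 0.05. These are 1.22% and 2.03% of the members, and the same test called 2.24% of all genes lower and 2% higher. The test compares the 2 libraries and not the conditions, since there is no replicate. The calls depended on the scaling. When scaled by the study's own library totals of PETs over 5 kb, 64 members were called lower and 4 higher, beside 32.1% lower and 1.02% higher over all genes, and the median scaled log2 ratios were -1.15 for members and -1 for all genes.

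**Figure D2:**
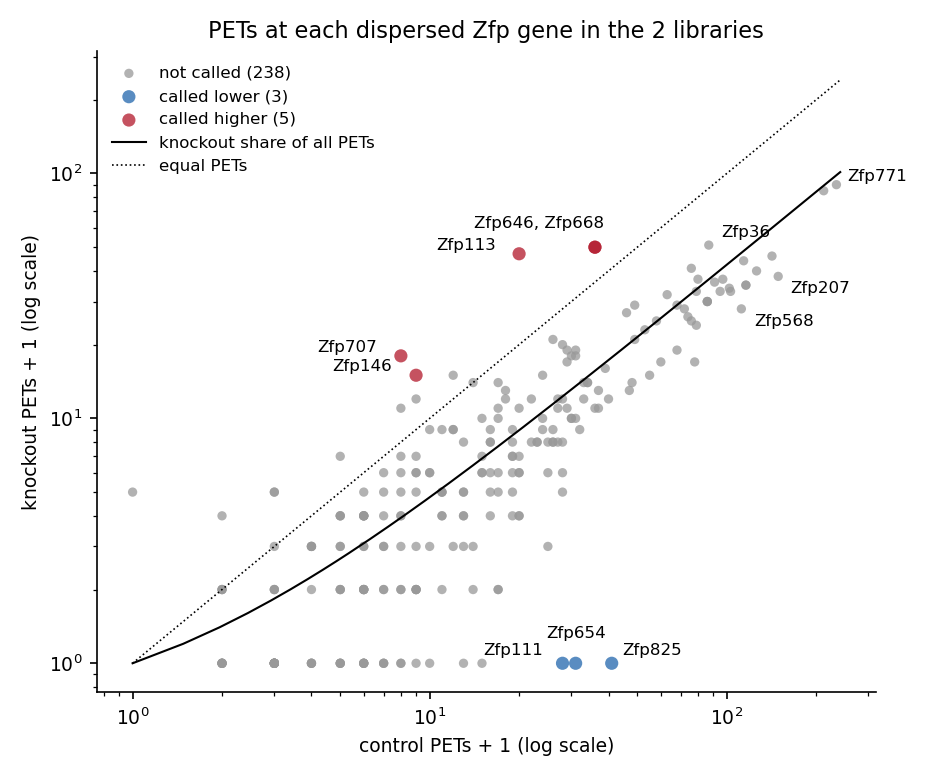
PETs plus 1 at each of the 246 members in the control (x axis) and knockout (y axis) library, both on log scales, with the 3 members called lower in blue, the 5 called higher in red, a solid line at the knockout share of all PETs and a dotted line at equal PETs. Most members lie close to the solid line, the called-lower members lie on the floor at 0 knockout PETs, and the called-higher members lie above equal PETs.

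The 3 members called lower had no knockout PET. Zfp111, a gene with the KRAB pattern, 14 fingers and an RBM at position -60, had 27 control PETs and 0 knockout PETs, which is at least 3.76-fold lower after scaling, taking 3 knockout PETs as the limit that a count of 0 allows (adjusted p = 0.00601, exact binomial test). Its control PETs came from 2 anchors, chr7:24969493-24984064 with 17 PETs and chr7:24984610-24993786 with 10 PETs, the second of which holds the start and the motif. Neither anchor had any knockout anchor over it, and the nearest knockout anchor lay 59.1 kb from the gene, at Zfp235, with 1 PET.

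For the other 2 genes the knockout library held a narrower anchor at the same place that ended more than 1 kb from the gene. Zfp825 had 40 control and 0 knockout PETs (adjusted p = 0.000121, exact binomial test), all from the anchor chr13:74611959-74617043, which is at least 5.58-fold lower by the same limit. The gene spans chr13:74617965-74620391 on the minus strand, so this anchor lay beyond its 3′ end and did not overlap its body. With only anchors that overlap the gene body, Zfp825 was not among the called members. A knockout anchor with 14 PETs lay inside this stretch, 2.93 kb from the gene. With overlapping anchors of the 2 libraries merged, Zfp825 had 40 and 14 PETs and a scaled log2 ratio of -0.25. Zfp654 had 30 control and 0 knockout PETs (adjusted p = 0.0026, exact binomial test), and 30 and 9 PETs with merged anchors. Merging kept the call of Zfp111, at 27 and 0 PETs (adjusted p = 0.0152, exact binomial test). With anchors within 1 kb of an annotated start only, Zfp111 had 10 and 0 PETs and was not called (adjusted p = 0.375, exact binomial test). Zfp825 and Zfp654 were not among the members called there either. Next by ratio among members with at least 10 PETs came Zfp236 with 14 and 0 PETs and Zfp41 with 12 and 0, neither of which passed the test (adjusted p = 0.19 and 0.252, exact binomial test).

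The 5 members called higher had wider knockout anchors, and in the case of Zfp113, Zfp646 and Zfp668 these took in more genes. Zfp113 had 19 control and 46 knockout PETs and a scaled log2 ratio of 2.47 (adjusted p = 1.2e-09, exact binomial test). Its summed anchors measured 13.6 kb in the control and 38.1 kb in the knockout, where 1 anchor also held Ap4m1, Cops6, Mcm7 and Taf6. With merged anchors Zfp113 had 201 and 64 PETs and a scaled log2 ratio of -0.39, on the other side of 0. Zfp646 and Zfp668 shared 1 anchor and could not be told apart, with 35 control and 49 knockout PETs each (adjusted p = 4.96e-06, exact binomial test). That anchor measured 42.7 kb with 4 genes in the control and 74.1 kb with 8 genes in the knockout, and merged anchors gave 119 and 56 PETs.

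Zfp707 had 7 control and 17 knockout PETs (adjusted p = 0.00172, exact binomial test) on 6.73 and 21.7 kb of anchors, and 31 and 28 PETs with merged anchors, at a scaled log2 ratio of 1.09 that did not pass the test (adjusted p = 0.151, exact binomial test). Zfp146, whose protein is made almost wholly of fingers, had 8 and 14 PETs (adjusted p = 0.0368, exact binomial test) on 9.99 and 14 kb, and 12 and 14 PETs with merged anchors. Zfp526 had 7 and 10 PETs, a scaled log2 ratio of 1.64 that did not pass the test (adjusted p = 0.182, exact binomial test), and 26 and 10 with merged anchors. Of the 14 knockout PETs of Zfp146, 6 came from a single pair with an anchor on chromosome 8. With merged anchors, 1 member was called lower and 0 were called higher, beside 0.967% and 0.546% of all genes. At an unadjusted p under 0.05 and with anchors as called, 12 members (4.88%) were lower and 11 (4.47%) higher, against 8.14% and 4.74% of all genes.

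**Figure D3:**
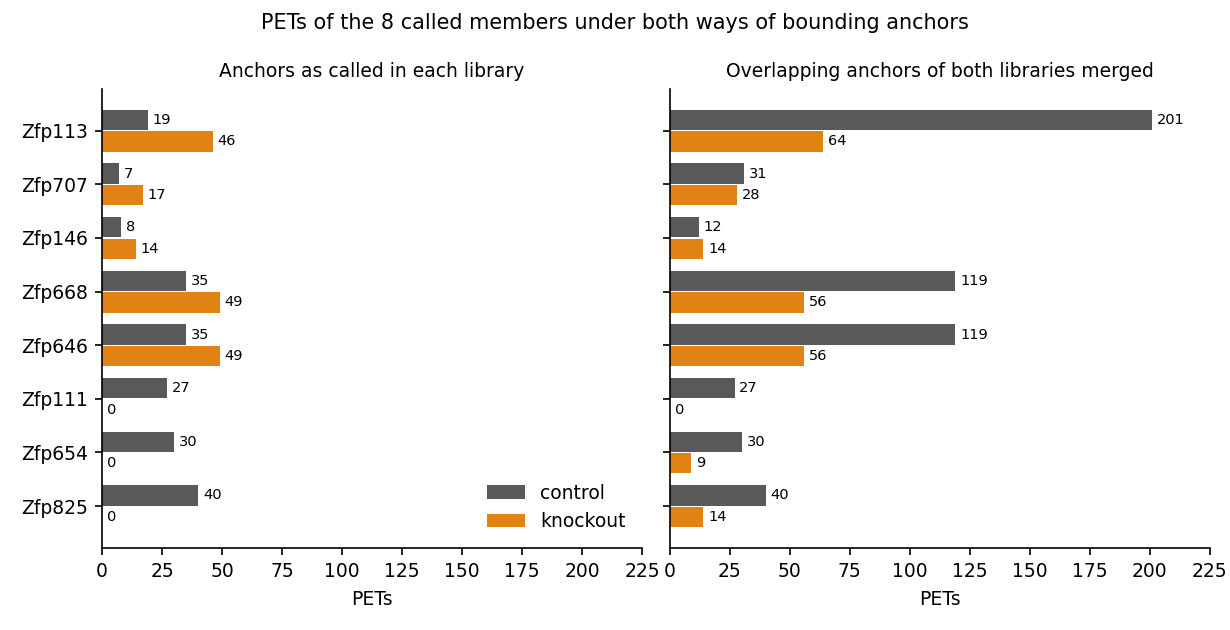
PETs of the 8 called members in the control (gray) and knockout (orange) library, with anchors as called in each library on the left and with overlapping anchors of both libraries merged on the right. Zfp111 has 27 and 0 PETs in both panels, whereas Zfp113, Zfp646 and Zfp668 have more knockout PETs on the left and fewer on the right.

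Anchor width moved with the PET ratio across the members. The summed anchor width of a gene and its PETs were correlated across members in both libraries (Spearman rho 0.896 in the control and 0.934 in the knockout, 246 genes that share 2 libraries). The 246 include 42 members without a knockout anchor and 1 without a control anchor, for which width and PETs are both 0. Of the 203 members with anchors in both libraries, 114 had knockout anchors within 1.25-fold of the control width, and the exact binomial test called 0 of these lower and 0 higher, compared with 114 called lower and 51 called higher among 6777 such genes overall. At an unadjusted p under 0.05, 2 of the 114 members were lower and 2 higher. Their median scaled log2 ratio was -0.12, equal to the -0.12 of all such genes, and 72 of 114 (63.2%) had fewer PETs after scaling, against 57.4%. The median was -0.57 over the 52 members with narrower knockout anchors and 0.53 over the 37 with wider ones, and all 5 called-higher members were among the wider. Over the 203 members the ratio of widths and the ratio of PETs had a rank correlation of 0.479, and over all 11158 such genes it was 0.447. Whether the anchors changed with the knockout or with the depth of the peak calls was not tested.

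**Figure D4:**
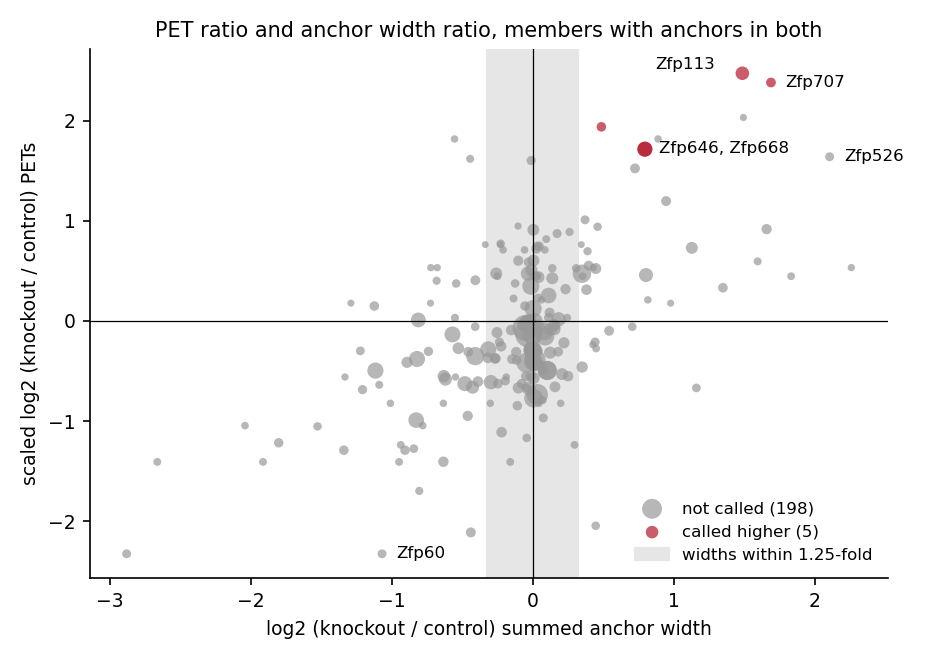
Scaled log2 ratio of PETs (y axis) against the log2 ratio of summed anchor width (x axis), knockout over control, for the 203 members with anchors in both libraries, with point size growing with total PETs and a gray band where widths agree within 1.25-fold. The 5 called-higher members lie to the right of the band, and no called member lies in it.

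Most of the 12 members with the most PETs shared broad anchors with other genes. Zfp771 had 233 control and 89 knockout PETs, and Zfp553 had 211 and 84. Both shared an anchor of 69.9 kb in the control and 67.5 kb in the knockout with Cd2bp2, Mylpf, Sept1 and Tbc1d10b, so these PETs cannot be assigned to 1 gene. Zfp513 had 141 and 45 PETs on anchors of 87.8 and 88.8 kb that held 8 genes. Zfp367 had 125 and 39, Zfp202, a SCAN protein, had 102 and 32, Zfp821 had 101 and 33, and Zfp647 and Zfp7 shared an anchor with 115 and 34.

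Zfp655, Zfp568 and Zfp202 stood alone at their anchors. Zfp655 had 113 and 43 PETs on anchors of 36.1 and 36 kb on chromosome 5. Zfp568, a KRAB protein known for silencing a placental promoter of Igf2, had 111 control and 27 knockout PETs on 55.7 and 55.9 kb, or 24.3% (interval 15.3 to 37.3), with a scaled log2 ratio of -0.77 that did not pass the test (adjusted p = 0.159, exact binomial test). Zfp207, a spindle and splicing factor whose anchor also held 5730455P16Rik, had 148 and 37 PETs, or 25% (interval 16.9 to 36), on anchors of 47.3 and 48.4 kb and also fell short of the threshold (adjusted p = 0.0914, exact binomial test). The intervals of Zfp568 and Zfp207 lie below the 41.8% of all PETs, but they are not adjusted for the number of genes, as the test is. Of the 12 members with the most PETs, Zfp36 alone had a scaled log2 ratio above 0, at 0.47, and with merged anchors it had 162 and 50 PETs and a ratio of -0.44. Merging moved Zfp821 the other way, to 101 and 43 PETs and a ratio of 0.03.

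Of 30 genes listed for a known role 26 were members, 18 with fewer and 8 with more PETs after scaling, beside 60.7% with fewer over all genes. None of the 26 was called by the exact binomial test. At an unadjusted p under 0.05, 2 were lower and 0 higher, beside 8.14% and 4.74% of all genes. With the study's totals, Zfp57, Zfp106, Zfp148, Zfp207, Zfp219, Zfp335, Zfp451, Zfp462, Zfp598, Zfp622 and Zfp644 were called lower. At this scaling 32.1% of all genes and 64 of the 246 members were called lower. Among the proteins that guard imprints and retroelements, Zfp57, which keeps imprinted regions methylated, had 31 control and 8 knockout PETs, and Zfp445, which shares this role, had 12 and 4. Zfp809, which silences retroviruses through their primer binding site, had 26 and 11, a scaled log2 ratio of 0.02. Zfp819, a repressor of retroelements in pluripotent cells, had 19 and 5. The median of these 4 was -0.46.

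Of 9 stem cell and chromatin regulators, 6 had fewer PETs after scaling. Zfp281, a regulator of pluripotency, had 25 and 8 PETs. Zfp462, which maintains heterochromatin at lineage genes, had 78 and 23 PETs spread over 15 control and 10 knockout anchors, 96.6 and 44.6 kb in sum, all without another protein-coding gene. Zfp644, a partner of the G9a methyltransferase complex, was spread likewise over 13 and 9 anchors, with 73 and 25 PETs. Zfp219, a partner of Oct4 and Sox2, had 96 and 36. Zfp687 and Zfp592, of the Zmynd8 complex, had 75 and 40, and 7 and 4. Zfp217 had 15 and 4, and Zfp410, an activator of Chd4, had 5 and 3. Zfp451, a SUMO ligase, had 16 and 1, the lowest scaled log2 ratio of this group at -2.33 (adjusted p = 0.303, exact binomial test), and 16 and 3 with merged anchors.

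Among RNA and ribosome factors, 5 of 8 had fewer PETs after scaling. Zfp36 (tristetraprolin), which triggers decay of AU-rich mRNAs, had 86 and 50. Zfp598, the ubiquitin ligase that senses collided ribosomes, had 27 and 7. Zfp622, a factor of large-subunit assembly, had 29 and 9, and Zfp593, of the same process, had 5 and 0. Zfp106 and Zfp346, both RNA-binding proteins, had 57 and 24, and 14 and 6, with scaled log2 ratios of 0.01 and 0.03. Zfp326, which joins Pol II and splicing, had 16 and 4, and 16 and 7 with merged anchors. Among developmental regulators, Zfp335 had 90 and 35 and Zfp148 had 39 and 11, whereas Zfp521 with 8 and 1, Zfp703 with 5 and 3 and Zfp423 with 1 and 0 carried too few PETs for a comparison.

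By encoded domain, the 104 members with the KRAB pattern had a median of 8 control and 2 knockout PETs, and 76 of them had fewer after scaling, with a median scaled log2 ratio of -0.56. The 142 members without it had medians of 15 and 6.5, 85 had fewer, and the median ratio was -0.22. Counted once per pair, the percent of control was 36.4% (interval 33 to 40.1) with the pattern and 38.8% (interval 36.5 to 41.2) without, so the intervals overlap. Among members with at least 10 PETs the medians were -0.30 over 55 genes and -0.13 over 105 genes. The control medians of PETs per kb of anchor were 1.13 and 1.11. By number of fingers, the percent of control was 31.9% (interval 28.9 to 35.3) over 54 members with 1 to 5 fingers, 42.3% (interval 39 to 45.8) over 84 with 6 to 10 and 36.8% (interval 33.7 to 40.3) over 97 with 11 or more. The 11 members without a finger match stood at 52% (interval 40.6 to 66.3). Among these 11, Zfp36 had 86 and 50 PETs, or 162 and 50 with merged anchors. Zfp330, also among them, had 29 and 17, of which 17 and 16 came from 1 pair with an identical stretch. The group with 6 to 10 fingers held 3 called-higher members, Zfp113, Zfp707 and Zfp146, whose knockout anchors were wider.

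The 23 members with an RBM at the promoter held 351 control and 112 knockout PETs, or 31.9% (interval 25.6 to 39.6). The 223 members without one held 4927 and 1889, or 38.3% (interval 36.3 to 40.4), and the 2 intervals overlap. After scaling, 17 of 23 had fewer PETs, 6 had more, and 5 (21.7%) had none in the knockout library. The median scaled log2 ratio was -0.63 with the motif and -0.29 without. Zfp239 had 59 and 16 PETs, Zfp74 had 32 and 11, Zfp444 had 30 and 9, Zfp180 had 19 and 5, and Zfp60 had 16 and 1. In the other direction Zfp358 had 45 and 26, Zfp566 had 16 and 13, and Zfp260 had 11 and 14 with a scaled log2 ratio of 1.52, which merged anchors lowered to 0.41. Zfp111 passed the test in this group and no other member did. With anchors near annotated starts only, Zfp111 did not pass it and Zfp260 was called higher, with 6 and 12 PETs (adjusted p = 0.0332, exact binomial test). Without Zfp111 the motif members held 324 and 112 PETs, or 34.6% (interval 27.6 to 43).

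Members tended to lie in runs. Joined where neighbors lay within 200 kb, 70 members formed 10 runs of at least 5 genes, 56 formed 22 shorter runs and 120 stood alone. The lowest percent of control was in a run of 9 genes over 434 kb on chromosome 7, from Zfp180 to Zfp428, with 101 control and 21 knockout PETs, or 20.8% (interval 12.3 to 33.5). This interval lies below the 41.8% of all PETs, but the run was singled out after its value was seen and is 1 of 10. Without Zfp111 it held 75 and 21 PETs, or 28% (interval 16.4 to 45.9), an interval that includes 41.8%. In it Zfp111 had 27 and 0 PETs, Zfp180 had 19 and 5, Zfp93 had 11 and 2, Zfp112 had 10 and 1, Zfp94 had 5 and 1, Zfp114 had 4 and 0, Zfp61 had 2 and 0, Zfp235 had 1 and 1, and Zfp428 had 36 and 12. In all, 8 of these 9 had fewer PETs after scaling, 7 had the KRAB pattern and 5 had the RBM, whose sites are printed above.

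A second run on chromosome 7, the 13 genes from Zfp84 to Zfp146, had more motifs but another pattern. Its 215 control and 80 knockout PETs gave 37.2% (interval 28.4 to 48.3), with 7 of 13 promoters holding the RBM, 6 genes with fewer PETs and 2 with no knockout PET. The genes at its far end, Zfp566, Zfp260, Zfp382 and Zfp146, had more knockout PETs than the scaling gives, with 16 and 13, 11 and 14, 2 and 4, and 8 and 14. Zfp566 and Zfp260 shared 1 knockout anchor of 16.9 kb with 12 PETs, which count for both genes, and had separate control anchors. With merged anchors they had 25 and 13, and 25 and 14, at scaled log2 ratios of 0.30 and 0.41. The intervals of the 8 remaining runs all included 41.8%. By chromosome, the 10 members on chromosome 18, also singled out after their values were seen, all had fewer PETs after scaling, with 215 and 52 PETs, or 24.2% (interval 17.5 to 32.9), and none was called by the exact binomial test.

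**Figure D5:**
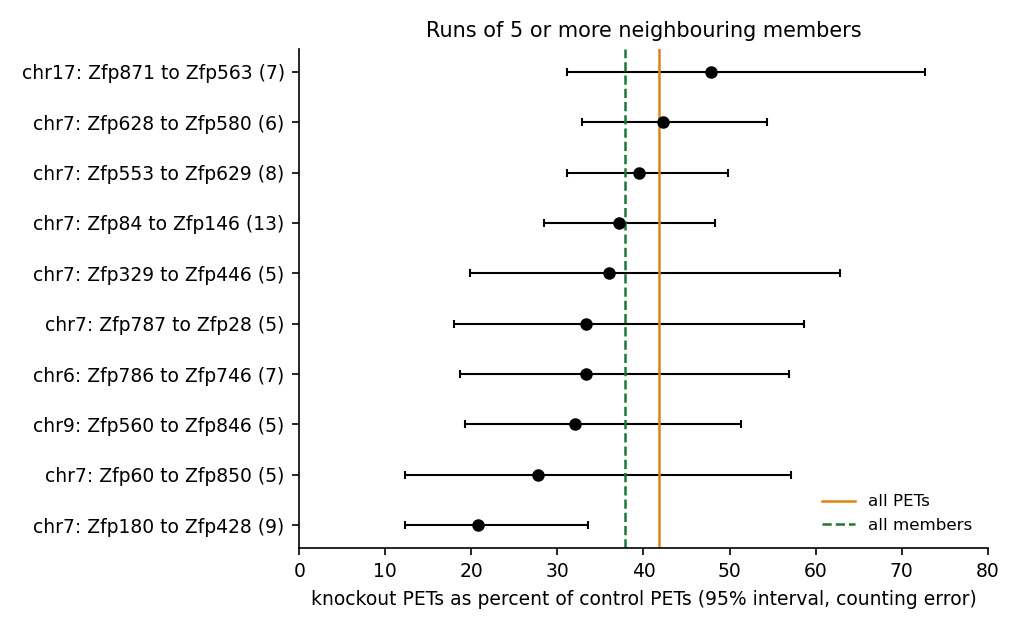
Knockout PETs as percent of control PETs, with 95% intervals for counting error, for the 10 runs of at least 5 neighboring members, named by their first and last gene with the number of genes in parentheses; vertical lines mark all PETs (41.8%) and all members (37.8%). The run from Zfp180 to Zfp428 at 20.8% is the only one whose interval ends below the line for all PETs.

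The pairs with the most PETs differed in kind. The pair with most PETs joined Zfp330 to an anchor at Scly on another chromosome, with 17 control and 16 knockout PETs, and its anchors share an identical stretch of at least 100 bases, whose part in the count was not tested. The same holds for the pair of Zfp579 with Plekhm1 (7 and 9), and for pairs of Zfp935 (17 and 5) and of Zfp808 (7 and 8) with neighboring loci on chromosome 13. The pair at Zfp825 joined 2 anchors 23.5 kb apart and had 31 control PETs of the gene's 40, with 0 in the knockout. This 0 holds for anchors within 1 kb of the gene. The knockout anchor with 14 PETs inside the gene's control anchor lay 2.93 kb from the gene and was not assigned to it. Zfp655 and Mtdh, on different chromosomes, were joined by 22 control and 7 knockout PETs without an identical stretch. Zfp706 was joined to an anchor 1690 kb away by 12 control and 0 knockout PETs, and with only pairs of at least 2 PETs Zfp706 was called lower, which it was not with all pairs. PETs of pairs with an identical stretch were 2.47% of member PETs in the control and 4.35% in the knockout, against 11.1% and 17.1% over all PETs.

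Within chromosomes, 157 of 601 control PETs (26.1%) and 71 of 265 knockout PETs (26.8%) spanned under 100 kb, and 248 (41.3%) and 113 (42.6%) spanned over 10 Mb. Few contacts joined 2 different members. They made up 74 of 5233 control PETs (1.41%, interval 1.11 to 1.77) in 71 pairs, 24 of them within a chromosome, and 34 of 1978 knockout PETs (1.72%, interval 1.19 to 2.39) in 33 pairs, 11 of them within a chromosome. Pairs with an anchor of the same member at both ends held a further 21 control and 12 knockout PETs. Different members joined by more than 1 PET included Zfp442 with Zfp937 at 217 kb (2 control and 0 knockout PETs), Zfp239 with Zfp637 at 27.4 kb (0 and 2) and Zfp444 with Zfp787 at 11.7 kb (1 and 1). Of all control pairs with a member, 71 of 5039 (1.41%) were found again in the knockout library, against 1.38% of all control pairs. With at least 2 control PETs the share found again was 21 of 78 (26.9%, interval 17.5 to 38.2), against 26.4%.

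The cofactors through which KRAB proteins act were read from a separate list. Of 24 genes, 23 had PETs, in 24 gene models, and the other, Fam208a, was not in the annotation under this name. Of these models 20 had fewer and 4 had more PETs after scaling, beside 60.7% with fewer over all genes. Their median scaled log2 ratio was -0.56, beside -0.24 over all genes. Trim28 had 111 control and 29 knockout PETs, Setdb1 had 35 and 11, and the HP1 genes Cbx1, Cbx3 and Cbx5 had 143 and 34, 306 and 99, and 176 and 57, and none of these passed the test. Called lower, beside 2.24% of all genes, were Mphosph8, of the HUSH silencing complex, with 108 and 9 (adjusted p = 1.27e-06, exact binomial test), Atf7ip, the partner of Setdb1, with 74 and 12 (adjusted p = 0.0334, exact binomial test) and the remodeler Smarcad1 with 158 and 37 (adjusted p = 0.0271, exact binomial test). Daxx, a histone H3.3 chaperone, was called higher, beside 2% of all genes, with 40 and 40 (adjusted p = 0.00495, exact binomial test). With merged anchors Smarcad1 alone remained called, with 161 and 37 PETs (adjusted p = 0.0498, exact binomial test), whereas Mphosph8 had 108 and 32 and Daxx had 139 and 40. Atf7ip kept its 74 and 12 PETs there and its adjusted p rose to 0.0699 by the same exact binomial test. With the study's totals 19 of the 24 gene models were called lower, beside 32.1% of all genes, among them Trim28, Setdb1, Cbx1, Cbx3 and Cbx5, and Daxx was not called.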

How the data were processed

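Pol II ChIA-PET pairs of anchors were analyzed for 1 control and 1 Ronin knockout library. Per the labels and the study's methods, the authors trimmed linkers with cutadapt, aligned mates to mm9 with Bowtie 1.1.1, called peaks with MACS 1.4.2 (names and versions also in the submitters' processing notes), merged 2 replicates per condition and deposited, for each pair of peaks, the count of PETs, the distance between peaks (a signed score in bases) and a p-value with its adjusted p-value. Counts were used as deposited; the deposited adjusted p-value served only as an alternative filter, and the deposited distance score was not used.

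An anchor was assigned to every protein-coding gene of GENCODE vM1 within 1 kb of its body, and a pair was counted once per gene. The deposited counts of each gene were compared by an exact two-sided binomial test against the knockout share of all PETs (29.5%), with Benjamini-Hochberg adjustment over 12817 genes. The scaled ratio used a pseudocount of 1 PET. Alternatives were pairs by class, by PETs and by adjusted p-value, the window, anchors near 1 gene, names, identical stretches, scaling, the pseudocount and the genes adjusted over; merged anchors and leaving out the anchor with the most partners were added after the data were seen. The test was checked on counts simulated from the same binomial share. These held no variation between replicates or in anchor bounds, so the check does not cover either. Sequences came from the NCBIM37 (mm9) genome. Domain patterns were searched in translated GENCODE coding sequences, and no protein sequence is shown. Python 3.11.15, scipy 1.17.1 and pysam 0.24.0 were used. The members and gene lists were chosen with earlier results of these data known. Genes are named by PETs (the 12 highest), by ratio (the 6 lowest and 6 highest with at least 10 PETs), by call, by known role, by motif, as ends of the 10 pairs with most PETs or as members joined to a member; runs of neighbors and chromosome 18 were singled out after their values were seen.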

Additional observations from a re-analysis of the deposited data

How the results depend on the processing

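No paired analysis was possible because each condition has 1 merged library, and for the same reason no replicate could be left out. With intrachromosomal pairs only, the members' knockout PETs were 44.1% of control, with 1 member called lower and 0 higher (all genes 0.175% and 0.308%). Interchromosomal pairs only gave 2 called lower and 3 higher (all genes 1.67% and 1.73%). Pairs with at least 2 PETs gave 43%, and 49 of 69 members had fewer PETs (71%, all genes 67.4%). They gave 2 called lower and 0 higher (all genes 4.25% and 1.31%) and a median of -1.58 (all genes -1.58). They also lowered the interchromosomal share to 51.8% in the control and 67.5% in the knockout. Anchors near 1 gene only gave 32.1% (all genes 42.1%), 1 called higher (all genes 1.3%) and a median of -0.56 (all genes -0.32). A window of 5 kb gave 5 called lower and 6 higher (all genes 2.18% and 1.84%). The study's totals of PETs over 5 kb gave 64 called lower (all genes 32.1%) and a median of -1.15 (all genes -1). No scaling gave 94 lower and 1 higher (all genes 42.6% and 0.772%). Merged anchors, added after the data were seen, gave 1 lower and 0 higher (all genes 0.967% and 0.546%). In all, 57 recomputed values stayed within 1.5 times (counts) or the interval (shares and medians) of the value reported, and 20 moved outside these bounds. For single named genes, 606 recomputed values kept their call or lack of one. Another 33 lost a call, 49 gained one in the same direction and 8 turned direction. Direction turned for Zfp113 with a 5 kb window (-0.54), anchors near 1 gene (-3.58) and merged anchors (-0.39). With the study's totals, Zfp106 was called lower (-0.90), and with no scaling so were Zfp106 (-1.21), Zfp36 (-0.77), Zfp687 (-0.89) and Zfp809 (-1.17). Near annotated starts only, Zfp202 was called lower (-2.99), Zfp260 was called higher and Zfp111 was not called (-3.46). At 1 library per condition and a median of 12 and 4.5 PETs per member, depth limits what can be told for most members, and the cause of these shifts was not tested.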
